A study of Homo sapiens with 12 samples.

Results

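The 32 genes described here encode enzymes of cholesterol and fatty acid synthesis and the proteins that regulate them. The rule is a list of symbols that uses no measured value, although the list was drawn up with earlier results of these data known, and the genes were matched by Entrez gene identifier to 32 of the 23434 human gene rows of a table of nascent RNA counts. By role they comprise 5 regulators (SREBF1, SREBF2, SCAP, INSIG1 and INSIG2), 7 enzymes of the mevalonate pathway, 11 enzymes of squalene and sterol synthesis, 1 sterol carrier (STARD4) and 8 fatty acid enzymes.

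The cells were U2OS-MycER, derived from a human osteosarcoma and expressing a chimera of Myc and the hormone-binding domain of the estrogen receptor (MycER) that is held inactive until 4-hydroxytamoxifen (OHT) is added. The 12 libraries fall into 4 groups of 3. All cells were infected with virus carrying a doxycycline-inducible shRNA, either non-targeting (shNT) or directed at the transcription-associated kinase CDK12 (shCDK12), and received doxycycline at 1 µg/mL. The groups labelled shNT+OHT and shCDK12+OHT also received OHT at 300 nM for 40 h, whereas shNT and shCDK12 did not. All groups were then arrested with nocodazole at 100 ng/mL for 8 h, collected by mitotic shake-off and released for 12 h, with 5-ethynyl-uridine (EU) at 0.5 mM during the last 2 h. RNA made in that window was captured and sequenced (EU-seq), so the counts report new synthesis rather than the store of mature mRNA. Controls therefore carry MycER, an shRNA, doxycycline and a mitotic arrest as well. Each shRNA is given as a single label, with no hairpin sequence or second hairpin named, and nothing in the labels says whether the 3 libraries of a group came from separate cultures, so the p-values below measure the spread between these libraries only.

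Cells regulate these genes together according to their lipid content. The transcription factors encoded by SREBF1 and SREBF2 are made as membrane proteins of the endoplasmic reticulum, where SCAP escorts them; when sterols are plentiful, INSIG1 and INSIG2 hold SCAP back, and when sterols are scarce the complex moves to the Golgi, the factors are cut free and they switch on the genes of sterol and fatty acid synthesis, INSIG1 included. SREBF2 is known mainly for cholesterol genes and SREBF1 for fatty acid genes. Proliferating tumor cells depend on these pathways for new membrane, and Myc, which binds E-boxes such as CACGTG, is known to act on metabolic genes widely.

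CDK12 itself was examined first. Its level was 323, 289 and 300 CPM (counts scaled by TMM to a common library total) in shNT, and 293, 277 and 298 CPM in the libraries labelled shCDK12, a log2 change of -0.076 ± 0.084 (SE; edgeR adjusted p = 0.447) that turned to 0.015 with upper-quartile normalization. The ranges overlapped, so nascent CDK12 did not bear out the shCDK12 label in the absence of OHT. It cannot decide against that label either, since an shRNA acts on mature mRNA and these counts report new synthesis. With OHT it stood at 434, 356 and 401 CPM (shNT+OHT) and at 215, 208 and 218 CPM (labelled shCDK12+OHT), a 1.84-fold lower level (log2 -0.88 ± 0.11, adjusted p = 0.00011). These groups are therefore called "labelled shCDK12" and "labelled shCDK12+OHT" below, and every direction drawn from them depends on those labels. CDK12 rose with OHT in shNT (1.305-fold, adjusted p = 0.0352) and fell with it in the background labelled shCDK12 (1.35-fold, adjusted p = 9.55e-05). With the groups labelled shCDK12 and shCDK12+OHT exchanged, mean CDK12 would read 214 against 304 CPM without OHT. With OHT it would read 289 against 397 CPM. Whether each library carries the shRNA, and received the OHT, that its label states was not tested. The row of MYC, whose reads cannot be told apart from those of the MycER transgene, held 2221, 2044 and 2013 CPM (shNT), 2199, 1706 and 1997 CPM (shNT+OHT), 1214, 1035 and 1122 CPM (labelled shCDK12) and 2091, 2095 and 2000 CPM (labelled shCDK12+OHT). It was thus low in the libraries labelled shCDK12, by 1.87-fold against shNT (adjusted p = 1.8e-10). MYC rose with OHT in the background labelled shCDK12 (1.84-fold, adjusted p = 4.98e-08), and its change in shNT did not pass (adjusted p = 0.575). Under the exchange of groups described above, mean MYC would read 2062 against 2093 CPM without OHT and 1124 against 1967 CPM with it. MYC would then fall with OHT in that background, unlike in shNT.

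Of 7 osteoblast and mesenchymal markers, RUNX2, SPARC, COL1A1 and VIM were abundant enough to test, ALPL was low (at most 8.02 CPM), and COL1A2 and BGLAP were at or near 0. The other cell types' markers were low: PTPRC and ALB reached at most 1.37 CPM and PECAM1 1.00 CPM, while CDH1 reached 12.2 CPM. EPCAM lay at 6.66 to 9.55 CPM in the libraries labelled shCDK12 and at no more than 2.85 CPM in the other 9 libraries. All 4 testable osteoblast and mesenchymal markers fell in the libraries labelled shCDK12 against shNT (RUNX2 3.60-fold, adjusted p = 6.68e-14), and 3 of them rose with OHT in the background labelled shCDK12 (RUNX2 1.79-fold, adjusted p = 6.63e-07). With OHT in shNT, RUNX2 (1.62-fold, adjusted p = 0.00399), COL1A1 (1.74-fold, adjusted p = 0.00235) and SPARC (1.45-fold, adjusted p = 0.0139) fell, the last call being lost without shNT replicate 1 or 2 or shNT+OHT replicate 3. In these 3 comparisons the markers moved against most changes among the lipid genes, whereas between the OHT-treated groups COL1A1 (1.49-fold, adjusted p = 0.00685) and VIM (1.87-fold, adjusted p = 7.02e-05) were lower under the shCDK12 label, as were many lipid genes. In bulk libraries such as these, fewer cells of a kind and less RNA per cell cannot be told apart, and the part of these marker changes in the results below was not tested.

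Promoters of 28 of the 32 genes were found among RefSeq promoter windows of GRCh38.p14 (250 bases before and 50 after the most upstream listed start; ACAT2, FDFT1, SQLE and FASN had no entry). The letters searched on both strands were CACGTG (the E-box), TCACNCCAC (a common form of the sterol response element) and CCAAT (the box bound by NF-Y, a usual partner of the SREBF factors); the motifs do not overlap in the windows printed. CACGTG was present in 4 of the 28 (14.3%; INSIG1, SCAP, LSS and SC5D), against 10.3% of 9409 promoters of genes tested and 7.41% of all 27305. TCACNCCAC was present in 1 (3.57%; SREBF2), against 1.07% and 1.13%. CCAAT was present in 17 (60.7%), against 37.0% and 35.7%. These matches describe letters only. The windows shown were picked by hand as examples of a regulator or enzyme of each route, by no fixed rule; they hold more matches than the whole set, in which 10 of 28 windows held none of the 3 motifs (SREBF1, INSIG2, PMVK, IDI1, CYP51A1, DHCR7, ACACA, ELOVL6, FADS1 and FADS2). They are printed for the 250 bases before the start, 5′ to 3′ on the gene's strand, with matches in capitals (ATTGG is CCAAT read on the other strand). SREBF2 lies at chr22:41832855-41833104 (+), INSIG1 at chr7:155297628-155297877 (+), HMGCS1 at chr5:43313413-43313662 (-), DHCR7 at chr11:71449044-71449293 (-) and SCD at chr10:100346983-100347232 (+).
SREBF2: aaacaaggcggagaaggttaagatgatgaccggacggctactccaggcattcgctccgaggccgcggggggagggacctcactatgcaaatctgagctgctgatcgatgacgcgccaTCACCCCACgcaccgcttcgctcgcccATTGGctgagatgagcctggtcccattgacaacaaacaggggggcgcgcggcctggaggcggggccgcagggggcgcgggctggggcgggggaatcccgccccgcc
INSIG1: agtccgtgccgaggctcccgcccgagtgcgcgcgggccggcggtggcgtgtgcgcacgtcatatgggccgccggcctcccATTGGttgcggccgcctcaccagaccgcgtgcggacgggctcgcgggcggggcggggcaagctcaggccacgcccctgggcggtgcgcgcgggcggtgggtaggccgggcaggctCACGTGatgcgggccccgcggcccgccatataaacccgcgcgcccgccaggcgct
HMGCS1: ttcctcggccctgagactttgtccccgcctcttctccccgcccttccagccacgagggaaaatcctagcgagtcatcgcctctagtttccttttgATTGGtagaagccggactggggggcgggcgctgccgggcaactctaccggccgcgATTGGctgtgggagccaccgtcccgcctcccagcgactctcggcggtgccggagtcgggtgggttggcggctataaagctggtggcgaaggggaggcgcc
DHCR7: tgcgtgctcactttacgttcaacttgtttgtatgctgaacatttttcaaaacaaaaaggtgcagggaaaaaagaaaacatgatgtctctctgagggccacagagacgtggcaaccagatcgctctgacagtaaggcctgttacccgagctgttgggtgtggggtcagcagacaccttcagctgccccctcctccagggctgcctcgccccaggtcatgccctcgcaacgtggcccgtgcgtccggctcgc
SCD: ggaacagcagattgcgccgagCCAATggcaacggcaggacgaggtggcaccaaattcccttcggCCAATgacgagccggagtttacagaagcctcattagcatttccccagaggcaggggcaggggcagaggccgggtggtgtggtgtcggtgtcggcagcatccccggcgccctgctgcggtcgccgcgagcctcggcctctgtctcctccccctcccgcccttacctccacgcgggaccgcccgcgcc
The SREBF2 window held the TCACNCCAC match from 133 bases before the start and a CCAAT box from 106 bases before it. INSIG1 held an E-box 55 bases before its start. HMGCS1 and SCD each held 2 CCAAT boxes, at 155 and 100 and at 229 and 186 bases before the start, and the DHCR7 window held none of the searched letters.

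Library totals ran from 1928373 to 5227279 counts in shNT (median 4314380), from 1251695 to 3666406 in shNT+OHT (median 3297982), from 4142570 to 9400045 in the libraries labelled shCDK12 (median 5349901) and from 5378438 to 10447836 in those labelled shCDK12+OHT (median 7173020). The shNT+OHT group was the shallowest, and its libraries also stood apart from each other. A library's median correlation with the others of its group (Pearson's r across genes averaging over 5 CPM, log2 of CPM + 0.5) was 0.932, 0.938 and 0.946 in shNT+OHT and at least 0.972 in every other library. Chi-square per degree of freedom between the counts of paired libraries, which grows with depth, was 9.36 and 9.38 for the shNT+OHT pairs that hold replicate 1 and 4.04 for the remaining one, against 2.77 to 7.24 in the other groups. The part of depth in this spread was not tested. Without shNT+OHT replicate 1, 2 or 3, lipid genes called numbered 12, 8 and 4 for OHT in shNT (8 with all libraries), 18, 17 and 14 between the OHT-treated groups (15 with all) and 18, 19 and 20 in the interaction (18 with all). Mouse RNA was spiked in, but no mouse rows were analysed here, so every change is relative to the other genes of a library, and whether the cells made more or less RNA in all remains unmeasured.

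The median level of the lipid genes divided the 4 groups into 2 high and 2 low. The median over the 32 genes of each library's log2 ratio to the shNT mean was -0.018, 0.036 and -0.057 in shNT and 0.36, 0.40 and 0.27 in shNT+OHT. It was 0.28, 0.39 and 0.29 in the libraries labelled shCDK12, and -0.019, 0.12 and -0.014 in those labelled shCDK12+OHT. By the labels, the set's level was high with OHT alone and under the shCDK12 label alone, and close to shNT under the combination. The high and the low groups did not overlap. With the groups labelled shCDK12 and shCDK12+OHT exchanged, the same medians would read high with OHT in both backgrounds. They would read close to shNT without it. The summed CPM of the 32 genes divided the groups into the same high and low pairs, with 3063, 3108 and 2949 in shNT, 4570, 4682 and 4544 in shNT+OHT, 4211, 4394 and 4296 in the libraries labelled shCDK12, and 2993, 3025 and 3010 in those labelled shCDK12+OHT.

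**Figure D1:**
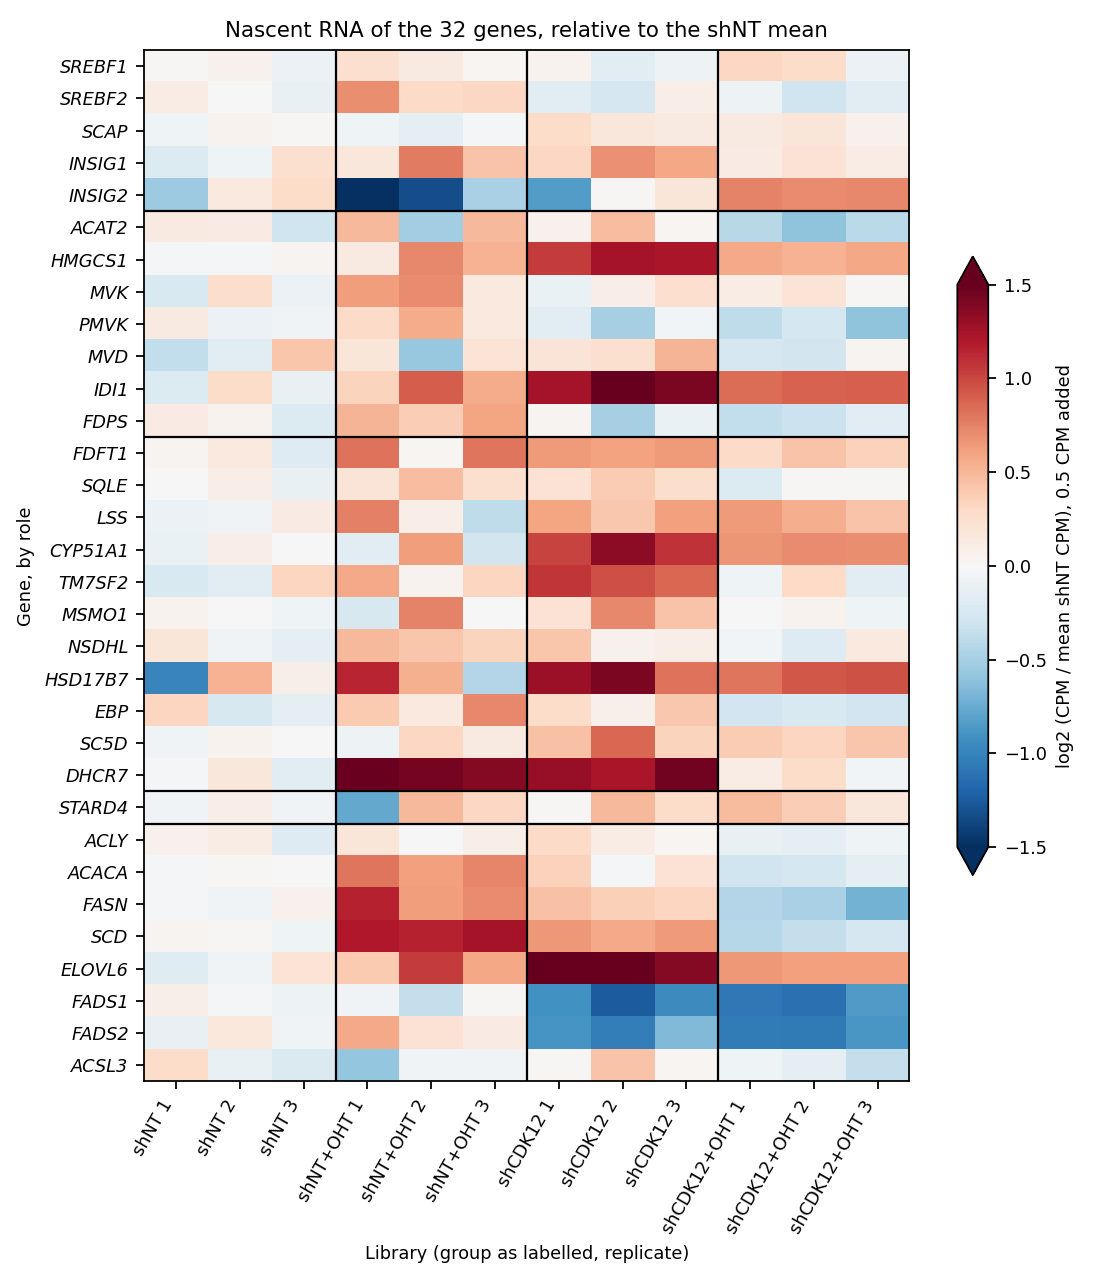
Nascent RNA of the 32 lipid genes (rows, by role) in the 12 libraries (columns), as log2 of CPM over the mean shNT CPM with 0.5 CPM added to both; red is above and blue below the shNT mean, and the scale stops at 1.5 on either side. DHCR7, SCD and HMGCS1 are red in shNT+OHT and in the libraries labelled shCDK12, and FADS1 and FADS2 are blue in both groups with the shCDK12 label.

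The first comparison asked how OHT, which activates MycER, changed the set in shNT cells. No group received OHT without carrying MycER, so an effect of OHT itself cannot be told apart from that of MycER. Upon OHT in shNT cells, 8 of the 30 lipid genes tested rose and 0 fell, against a background of 17.3% of 10272 genes called, 9.05% higher and 8.29% lower (edgeR quasi-likelihood test, Benjamini-Hochberg adjusted p under 0.05). The 8 were DHCR7 (2.69-fold), which makes cholesterol from its last precursor, SCD (2.30-fold), which puts the first double bond into fatty acids, FASN (1.80-fold), the fatty acid synthase, and ACACA (1.65-fold), which makes its malonyl-CoA substrate, with ELOVL6 (1.61-fold), FDFT1 (1.53-fold), HMGCS1 (1.39-fold) and SREBF2 (1.36-fold). The median log2 change over the 30 was 0.36, against -0.029 over all genes tested, and 27 of the 30 values were positive. INSIG2 and HSD17B7 had too few counts to be tested. The calls of ELOVL6, FDFT1, HMGCS1 and SREBF2 were lost when shNT replicate 1, 2 or 3 or shNT+OHT replicate 3 was left out, which took the count to 4, whereas it rose to 12 without shNT+OHT replicate 1; the call of ELOVL6 was also lost without shNT+OHT replicate 2 and that of SREBF2 without shNT+OHT replicate 1. DHCR7, ACACA, FASN and SCD were called in every alternative run.

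In the libraries labelled shCDK12 against shNT, 16 of 32 lipid genes rose and 2 fell (FADS1 and FADS2), against 62% of 11718 genes called, 29.6% higher and 32.4% lower. Of the 11 squalene and sterol enzymes, 9 rose, and the other two, NSDHL and EBP, did not pass the test. The largest rises were those of ELOVL6 (2.92-fold), IDI1 (2.81-fold), DHCR7 (2.49-fold), HSD17B7 (2.40-fold), HMGCS1 (2.27-fold), CYP51A1 (2.23-fold) and TM7SF2 (2.06-fold). The median log2 change was 0.28, against -0.027 over all genes. The call of STARD4, at a log2 change of 0.27, was lost without any of 5 single libraries, with 0.15 left without shCDK12 replicate 2.

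When OHT was added in the background labelled shCDK12, 18 of 32 lipid genes fell and 1 (INSIG2) rose, against 48.9% of 12519 genes called, 21.5% lower and 27.5% higher. The genes that fell comprised 4 of 7 mevalonate enzymes, 7 of 11 sterol enzymes, 6 of 8 fatty acid enzymes and INSIG1. DHCR7 fell 2.30-fold, SCD 1.95-fold, TM7SF2 1.91-fold, FASN 1.88-fold and ELOVL6 1.85-fold. The median log2 change was -0.34, against 0.048 over all genes tested. The call of FDFT1 was lost without shCDK12+OHT replicate 1, and that of ACSL3 without shCDK12+OHT replicate 3 or shCDK12 replicate 2, the latter taking its log2 change from -0.36 to -0.20. The calls of ACLY and MVD were each lost without any of 3 single libraries. Of the 8 lipid genes that rose with OHT in shNT, 7 fell with OHT in the background labelled shCDK12, 87.5%, and SREBF2 did not pass the test. This was not particular to lipid genes, since of all 930 genes that rose with OHT in shNT, 928 were tested in the background labelled shCDK12 and 690 of them (74.4%) fell. With the groups labelled shCDK12 and shCDK12+OHT exchanged, every change in this comparison would turn. These 7 lipid genes and 690 genes would then read as rising with OHT in both backgrounds. Whether the groups were exchanged was not tested.

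Between the OHT-treated groups, the libraries labelled shCDK12+OHT had lower RNA of 13 of 32 lipid genes and higher RNA of 2, CYP51A1 and INSIG2, than shNT+OHT, against 45.4% of 11668 genes called, 21.6% lower and 23.8% higher. SCD was 2.88-fold lower, FASN 2.59-fold, FADS2 2.48-fold, DHCR7 2.45-fold, ACACA 1.92-fold and FADS1 1.86-fold, so that 5 of the 8 fatty acid enzymes and 4 of the 11 sterol enzymes were lower. The median log2 difference was -0.27, against 0.048 over all genes. Without any 1 of the 3 shCDK12+OHT replicates the count of 15 went to 10, with 1 gene higher.

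The interaction compares the OHT response of the background labelled shCDK12 with that of shNT. It was negative past the threshold for 17 of the 32 lipid genes and positive for 1 (INSIG2), against 45.2% of 11699 genes called, 19.6% negative and 25.6% positive, and the median was -0.63, against 0.10 over all genes. Here a log2 value of -1 means that OHT moved the gene 1 log2 unit less in the background labelled shCDK12 than in shNT. The values ran from -2.63 for DHCR7 to 1.94 for INSIG2. Their sign and size depend on which group with the shCDK12 label received OHT. In shNT, mean DHCR7 went with OHT from 71.8 to 195 CPM and INSIG2 from 13.2 to 5.89 CPM. With the groups labelled shCDK12 and shCDK12+OHT exchanged, DHCR7 would go from 78.2 to 181 CPM there and INSIG2 from 22.2 to 11.8 CPM. The interaction was not fitted with these groups exchanged. Of the 32 values, 28 were negative, including those of all 7 mevalonate and all 11 sterol enzymes, while 55.2% of all genes had a positive value; 14 of the 32 did not pass the test.

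**Figure D2:**
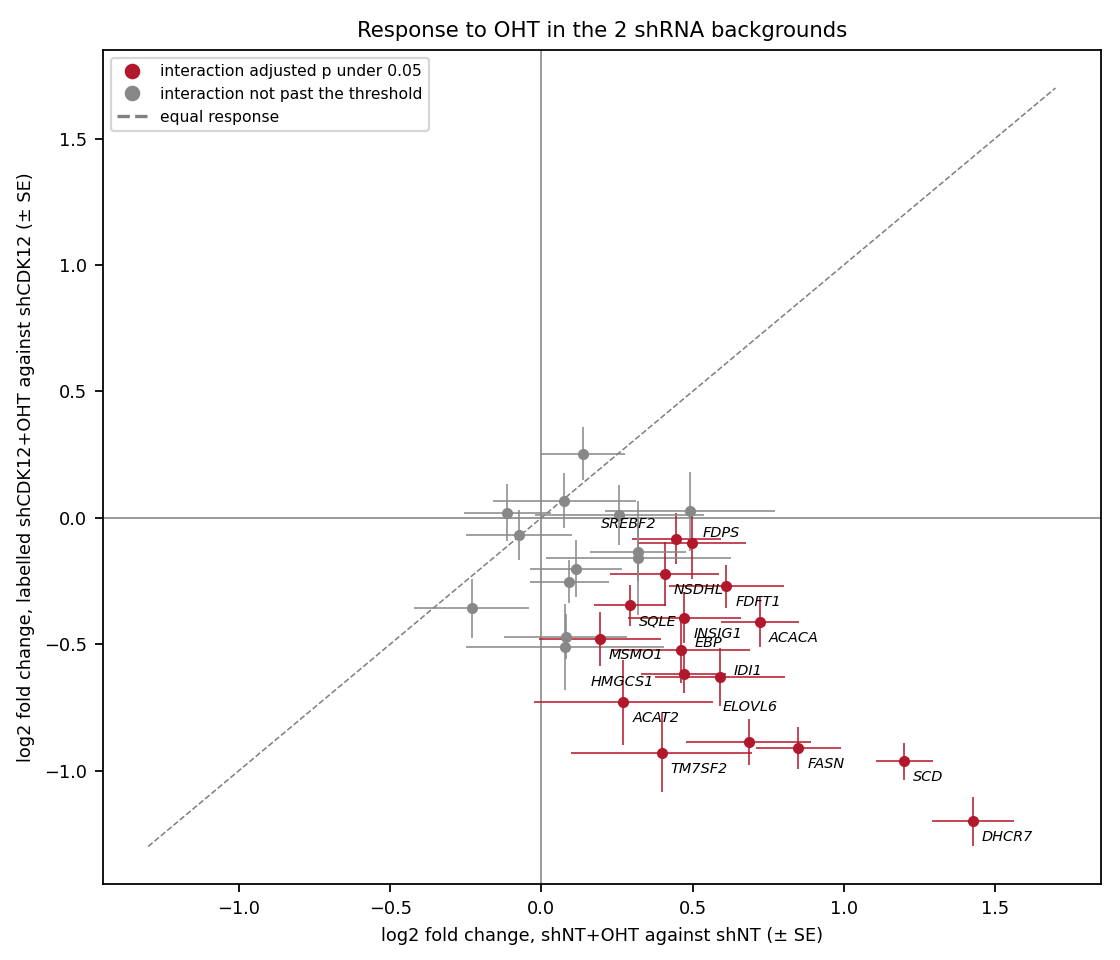
Log2 fold change with OHT in shNT cells (horizontal axis) against that in the libraries labelled shCDK12 (vertical axis) for the 30 lipid genes tested in both, with bars for the SE of each fit; red marks an interaction past the threshold and the dashed line an equal response. DHCR7, SCD, FASN and ELOVL6 lie far to the lower right, up with OHT in one background and down in the other.

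**Figure D3:**
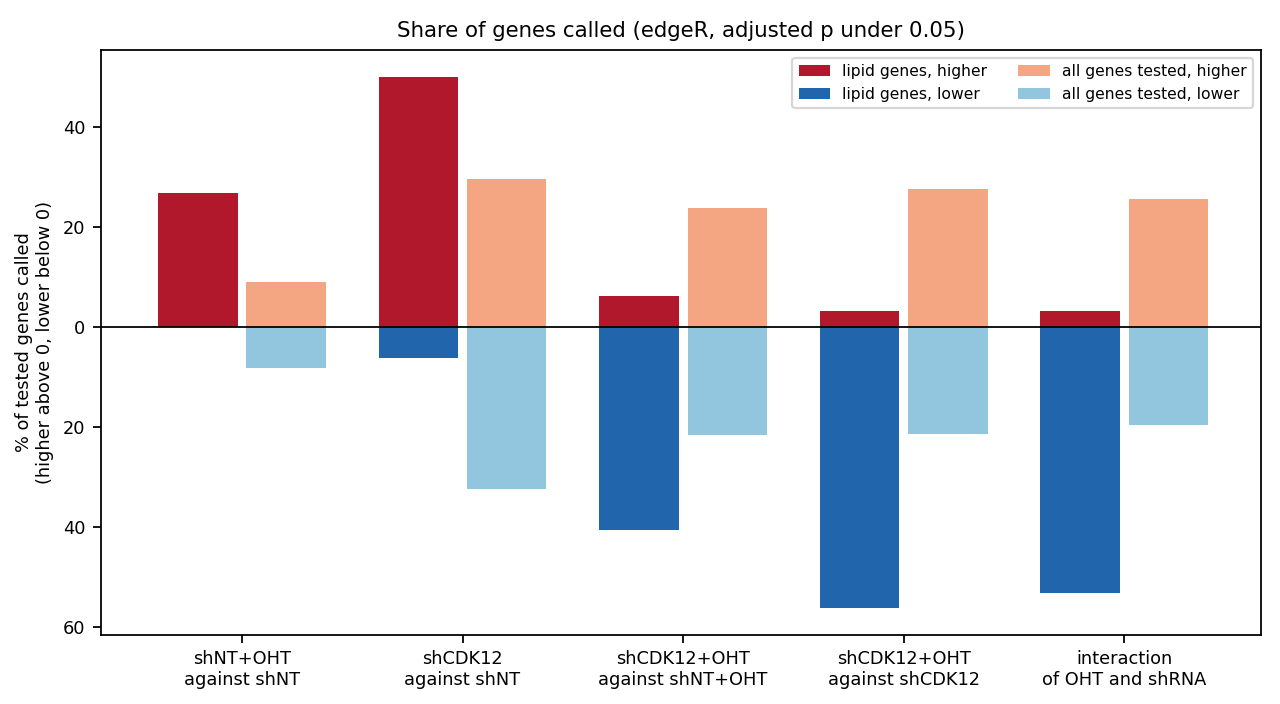
Percent of genes called higher (bars above 0) or lower (bars below 0) in each comparison, for the lipid genes tested (dark) and for all genes tested (light), by edgeR at an adjusted p under 0.05. The lower share of lipid genes was 56.2% with OHT in the background labelled shCDK12 and 53.1% in the interaction, beside 21.5% and 19.6% of all genes.

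Among the regulators, SREBF1, which encodes the factor known for fatty acid genes, stood at 101, 104 and 93.7 CPM in shNT and at 118, 110 and 102 CPM in shNT+OHT. The values were 104, 88.6 and 94.4 CPM (labelled shCDK12) and 124, 121 and 94.0 CPM (labelled shCDK12+OHT). All 4 ranges overlapped and no comparison passed the test; the interaction was 0.11 ± 0.18 (adjusted p = 0.631). Its locus overlaps RAI1 on the other strand, and whether reads were counted by strand is not given in the sources used here. SREBF2, the factor known for cholesterol genes, stood at 127, 117 and 109 CPM in shNT and at 191, 144 and 146 CPM in shNT+OHT. The values were 106, 99.1 and 126 CPM (labelled shCDK12) and 112, 95.7 and 105 CPM (labelled shCDK12+OHT). Only the shNT+OHT libraries were set apart, and the interaction was -0.53 ± 0.18 (adjusted p = 0.022), a call that was lost at -0.38 without shNT+OHT replicate 1 and also without any of 3 other libraries.

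INSIG1, the sterol sensor that is itself an SREBF target, stood at 61.6, 68.1 and 84.2 CPM (shNT), 80.5, 123 and 96.3 CPM (shNT+OHT), 88.2, 115 and 107 CPM (labelled shCDK12) and 77.4, 82.6 and 77.3 CPM (labelled shCDK12+OHT). It was higher in the libraries labelled shCDK12 than in shNT without overlap (log2 0.57 ± 0.13, adjusted p = 0.000503) and fell with OHT there (log2 -0.40 ± 0.10, adjusted p = 0.0034), while in shNT its OHT change of 0.47 ± 0.19 did not pass (adjusted p = 0.0938). The interaction was -0.87 ± 0.21 (adjusted p = 0.00256). INSIG2, the second retention protein, ran the other way at low level: 8.90, 14.6 and 16.0 CPM (shNT), 3.45, 4.95 and 9.28 CPM (shNT+OHT), 7.18, 13.3 and 15.0 CPM (labelled shCDK12) and 22.41, 21.96 and 22.13 CPM (labelled shCDK12+OHT). The last group was the highest and did not overlap the others (interaction 1.94 ± 0.45, adjusted p = 0.00161). SCAP lay between 43.7 and 58.6 CPM in all libraries and passed no test.

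In the mevalonate pathway, which builds isoprenoid units from acetyl-CoA, IDI1, the isopentenyl diphosphate isomerase, had the largest interaction. Its level was 28.1, 39.6 and 30.1 CPM (shNT), 41.4, 61.9 and 48.1 CPM (shNT+OHT), 77.8, 111 and 87.7 CPM (labelled shCDK12) and 58.8, 60.8 and 61.3 CPM (labelled shCDK12+OHT). All 3 groups lay above shNT, the libraries labelled shCDK12 highest. The rise under the shCDK12 label was 1.49 ± 0.15 on the log2 scale (adjusted p = 7.2e-09), OHT lowered it there by -0.63 ± 0.12 (adjusted p = 0.000211), and the interaction was -1.19 ± 0.24 (adjusted p = 0.000442). HMGCS1, which makes HMG-CoA, showed the same order. It stood at 246, 245 and 256 CPM (shNT), 273, 411 and 359 CPM (shNT+OHT), 517, 594 and 580 CPM (labelled shCDK12) and 370, 358 and 373 CPM (labelled shCDK12+OHT). Its interaction was -1.09 ± 0.16 (adjusted p = 1.98e-05). For both genes the combined condition stayed above shNT, unlike the set's median.

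MVK, the mevalonate kinase and the mevalonate enzyme with the smallest interaction, stood at 13.1, 18.7 and 14.5 CPM (shNT), 24.1, 25.6 and 17.1 CPM (shNT+OHT), 14.4, 16.6 and 18.5 CPM (labelled shCDK12) and 16.7, 17.97 and 15.6 CPM (labelled shCDK12+OHT). The groups overlapped and no comparison passed (interaction -0.45 ± 0.30, adjusted p = 0.237). ACAT2, which joins the first acetyl-CoA units, and FDPS, which makes farnesyl diphosphate, were the other two with a called interaction (-1.002 and -0.60). The interaction of ACAT2 was lost at -0.85 without shCDK12 replicate 2 and at -0.93 without shCDK12+OHT replicate 2, and that of FDPS without any of 7 single libraries. ACAT2 overlaps TCP1 and SOD2, and MVK overlaps MMAB, on the other strand. PMVK and MVD, which act between MVK and IDI1, were measured at no more than 19.8 CPM.

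In squalene and sterol synthesis, DHCR7, the last reductase, changed in all 4 pairwise comparisons and had the largest interaction of the 32 genes. Its level was 70.7, 80.6 and 64.2 CPM (shNT), 201, 196 and 187 CPM (shNT+OHT), 178, 168 and 197 CPM (labelled shCDK12) and 77.6, 87.3 and 69.8 CPM (labelled shCDK12+OHT). The high groups lay at 168 CPM and above and the low groups at 87.3 CPM and below, and within each pair of groups the ranges overlapped. OHT raised it by 1.43 ± 0.14 on the log2 scale in shNT (adjusted p = 1.21e-05) and changed it by -1.20 ± 0.10 in the background labelled shCDK12 (adjusted p = 2.41e-08). The interaction was -2.63 ± 0.17 (adjusted p = 3.6e-10).

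TM7SF2, a sterol reductase earlier in the pathway, had the next largest interaction of these enzymes, at -1.37 ± 0.31 (adjusted p = 0.00122). It stood at 11.5, 12.1 and 17.0 CPM (shNT), 20.4, 14.02 and 17.1 CPM (shNT+OHT), 29.0, 26.9 and 25.0 CPM (labelled shCDK12) and 12.9, 16.7 and 12.0 CPM (labelled shCDK12+OHT). Only the libraries labelled shCDK12 lay apart from the rest. TM7SF2 overlaps VPS51 on the same strand, so its reads are not certain to be its own. LSS, which folds squalene epoxide into lanosterol, had the smallest interaction. It stood at 24.6, 25.2 and 28.6 CPM (shNT), 44.5, 28.1 and 20.01 CPM (shNT+OHT), 39.6, 34.7 and 40.2 CPM (labelled shCDK12) and 40.9, 38.2 and 35.4 CPM (labelled shCDK12+OHT). The shNT+OHT libraries spanned all other groups, and its interaction of -0.26 ± 0.29 (adjusted p = 0.492) turned to 0.19 without shNT+OHT replicate 1.

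The remaining sterol enzymes lay between these. Interactions were called for EBP (-0.997), which moves a double bond of the sterol ring, FDFT1 (-0.89), the squalene synthase, MSMO1 (-0.66) and NSDHL (-0.63), which remove methyl groups from the ring, and SQLE (-0.64), the squalene epoxidase. The call of NSDHL was lost without any of 3 single libraries and that of MSMO1 without any of 8, going to -0.36 without shNT+OHT replicate 2. CYP51A1, the lanosterol demethylase, rose 2.23-fold under the shCDK12 label (adjusted p = 7.13e-10) and was 1.55-fold above shNT+OHT in the libraries labelled shCDK12+OHT (adjusted p = 0.0231), a call lost without any of 4 single libraries and at 0.44 log2 units without shNT+OHT replicate 3. CYP51A1 overlaps AKAP9 on the other strand, and CYP51A1 and EBP each overlap an unnamed protein-coding gene model on their own strand, so their reads are uncertain as well. SC5D rose 1.49-fold under the shCDK12 label (adjusted p = 0.00025), and HSD17B7, which has a closely similar pseudogene, was measured at no more than 17.1 CPM.

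STARD4, which carries cholesterol between membranes, stood at 93.5, 104 and 93.7 CPM (shNT), 57.0, 136 and 121 CPM (shNT+OHT), 98.0, 136 and 117 CPM (labelled shCDK12) and 135, 125 and 109 CPM (labelled shCDK12+OHT). The shNT+OHT libraries spanned the range of all others, and the interaction was not called (adjusted p = 0.992).

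Among fatty acid enzymes, SCD had the largest interaction. Its level was 585, 575 and 542 CPM (shNT), 1310, 1269 and 1343 CPM (shNT+OHT), 892, 838 and 887 CPM (labelled shCDK12) and 423, 443 and 477 CPM (labelled shCDK12+OHT). The 4 groups did not overlap, with shNT+OHT highest and the combination below shNT. OHT raised it by 1.20 ± 0.095 on the log2 scale in shNT (adjusted p = 3.02e-06) and changed it by -0.96 ± 0.074 in the background labelled shCDK12 (adjusted p = 1.28e-08), an interaction of -2.17 ± 0.12 (adjusted p = 3.48e-11). FASN followed the same order. It stood at 240, 233 and 254 CPM (shNT), 538, 375 and 396 CPM (shNT+OHT), 329, 311 and 302 CPM (labelled shCDK12) and 178, 173 and 148 CPM (labelled shCDK12+OHT). Again no groups overlapped, and the interaction was -1.77 ± 0.17 (adjusted p = 9.35e-08).

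ACSL3, which activates fatty acids by joining them to coenzyme A, had the smallest interaction of this group, -0.12 ± 0.24 (adjusted p = 0.708), and it turned to 0.0026 without shNT+OHT replicate 3 and to 0.022 without shCDK12 replicate 2. It stood at 98.6, 75.0 and 69.7 CPM (shNT), 53.9, 78.4 and 78.3 CPM (shNT+OHT), 81.8, 109 and 82.5 CPM (labelled shCDK12) and 77.3, 73.9 and 63.1 CPM (labelled shCDK12+OHT). Of the rest, ELOVL6, which lengthens saturated fatty acids, had an interaction of -1.57 (adjusted p = 6.75e-06) and ACACA one of -1.14 (adjusted p = 9.67e-06), while that of ACLY, which supplies cytosolic acetyl-CoA, was not called (adjusted p = 0.0732). The desaturases FADS1 and FADS2, which make polyunsaturated fatty acids, departed from the set. FADS1 stood at 132, 123 and 118 CPM in shNT and 120, 97.3 and 126 CPM in shNT+OHT, against 66.2, 52.3 and 63.8 CPM (labelled shCDK12) and 58.7, 56.8 and 68.8 CPM (labelled shCDK12+OHT). It fell with the shCDK12 label, 2.07-fold without OHT (adjusted p = 2.22e-08) and 1.86-fold with it (adjusted p = 0.000578), and its change with OHT passed in neither background; FADS2 fell 1.83-fold (adjusted p = 1.74e-06) and 2.48-fold (adjusted p = 8.58e-05). FADS1 and FADS2 overlap each other on opposite strands and FADS2 overlaps FEN1 on the same strand, so their counts are not certain to be their own, and ACACA overlaps C17orf78 on the other strand.

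**Figure D4:**
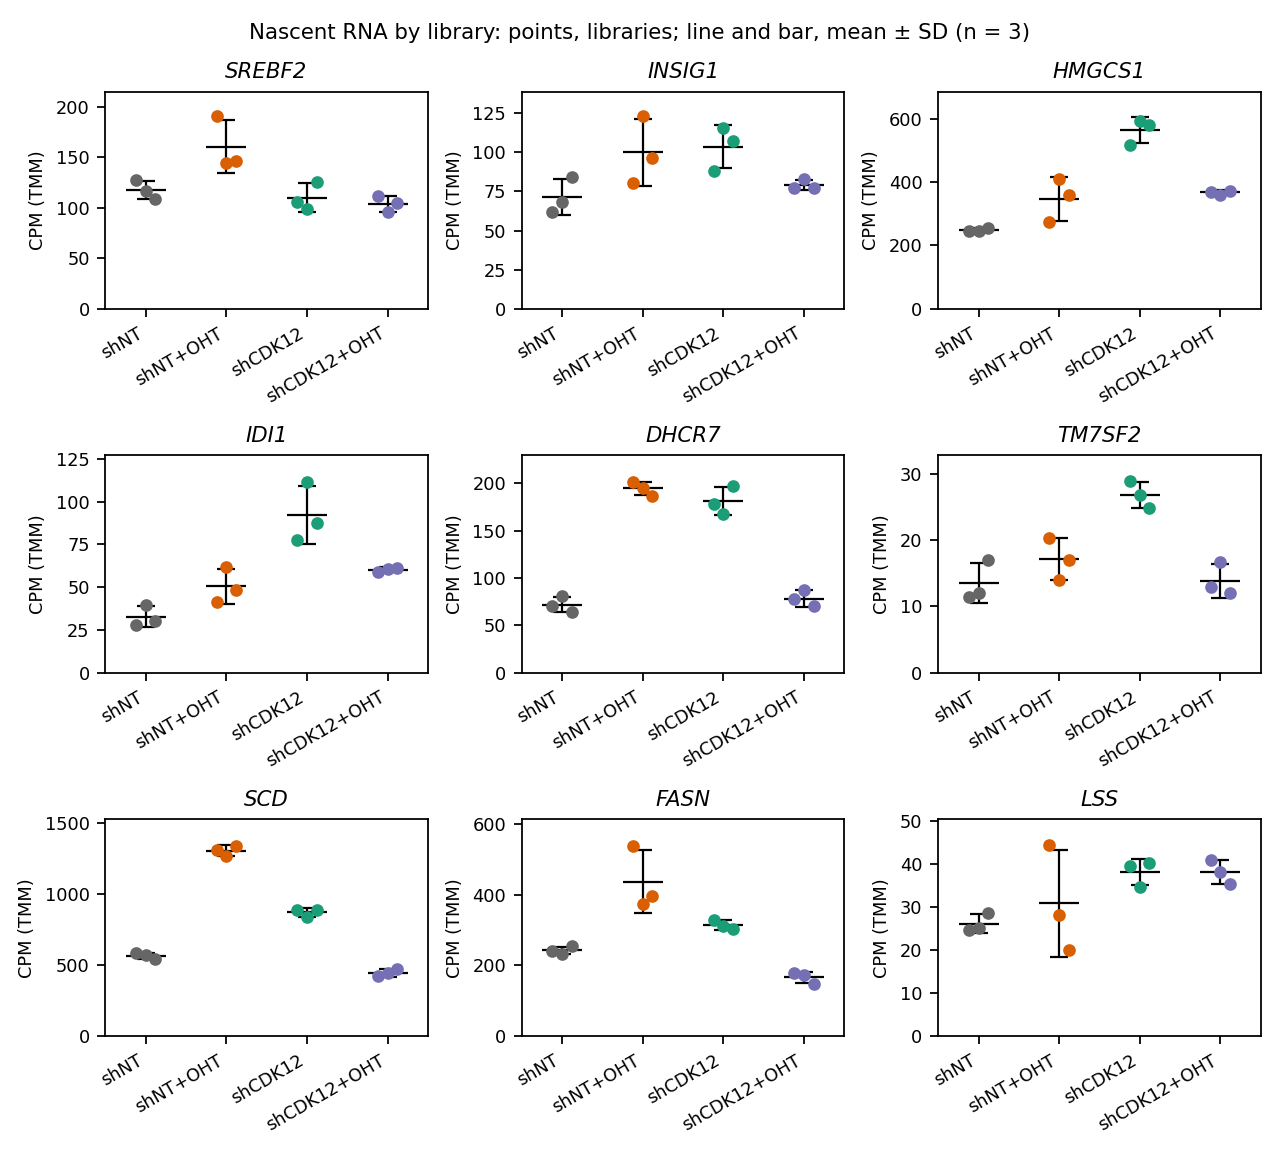
Nascent RNA in CPM (linear axes from 0, TMM-scaled) of 9 lipid genes in the 4 groups; points are libraries, and the line and bar are the mean ± SD (n = 3). SCD reaches 1269 to 1343 CPM (shNT+OHT) and 423 to 477 CPM (labelled shCDK12+OHT), while LSS in shNT+OHT spans the range of its other groups.

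The genes differed in how closely they followed the set. Over the 12 libraries, Pearson's r between a gene's log2 CPM and the mean z-score of the 32 genes, each gene being itself part of that mean, was 0.985 for DHCR7, 0.867 for SQLE, 0.848 for SCD, 0.766 for FASN and 0.763 for INSIG1. It was near 0 for STARD4 (0.0293) and FADS2 (0.0837), and negative for SREBF1 (-0.105), FADS1 (-0.20) and INSIG2 (-0.588). These are descriptions over libraries that fall into 4 groups. Of 11634 other genes, those whose log2 CPM was most like that mean over the same libraries were GJA1 (r = 0.987), CIPC (0.983), ZC3H12C (0.983), SLC9A3-OT1 (0.982) and DDX10 (0.982). GJA1, the gap junction protein connexin 43, had mean levels of 57.0 CPM (shNT), 180 CPM (shNT+OHT), 274 CPM (labelled shCDK12) and 65.5 CPM (labelled shCDK12+OHT). These genes were picked by that same r, so their closeness is set by the choice.

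A further 36 genes of the same pathways were examined: 17 other enzymes, 8 that process or degrade the SREBF factors and their partners, and 11 of uptake, storage, efflux and LXR signaling. With OHT in shNT, 7 of 31 tested rose (22.6%, against 9.05% of all genes) and 3 fell (9.68%, against 8.29%). Under the shCDK12 label 8 of 33 rose (24.2%, against 29.6%) and 13 fell (39.4%, against 32.4%). With OHT in the background labelled shCDK12 7 of 35 rose (20%, against 27.5%) and 9 fell (25.7%, against 21.5%). Between the OHT-treated groups 4 of 33 were higher (12.1%, against 23.8%) and 10 lower (30.3%, against 21.6%). The interaction was positive for 9 of 33 (27.3%, against 25.6%) and negative for 9 (27.3%, against 19.6%), with a median of 0.22 against 0.10 over all genes. Several of these shares lay near those of all genes.

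Other enzymes of the synthetic routes included some that followed the set and some that ran against it. MID1IP1, which activates acetyl-CoA carboxylase, had the largest negative interaction of the 36 genes. It stood at 149, 143 and 161 CPM (shNT), 323, 287 and 329 CPM (shNT+OHT), 257, 310 and 288 CPM (labelled shCDK12) and 104, 115 and 96.5 CPM (labelled shCDK12+OHT). It was high in the same groups as DHCR7, with an interaction of -2.50 ± 0.15 (adjusted p = 1.51e-10). HACD3, a dehydratase of fatty acid elongation, had an interaction of -1.20 ± 0.14 (adjusted p = 1.44e-06). SCD5, a second stearoyl-CoA desaturase, ran against SCD. It stood at 27.4, 29.7 and 30.6 CPM (shNT), 16.9, 24.8 and 10.4 CPM (shNT+OHT), 10.2, 8.71 and 7.59 CPM (labelled shCDK12) and 21.3, 23.4 and 21.2 CPM (labelled shCDK12+OHT). It was lowest under the shCDK12 label alone, and its interaction was 2.18 ± 0.33 (adjusted p = 2.55e-05).

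Of the processing genes, MBTPS1 and MBTPS2, the proteases that cut the SREBF factors free, both fell under the shCDK12 label (1.68-fold, adjusted p = 1.41e-05, and 2.55-fold, adjusted p = 0.000173) and rose with OHT there (1.46-fold, adjusted p = 0.000205, and 1.73-fold, adjusted p = 0.00695), opposite to most of the enzymes. In uptake and transport, NPC2, which moves cholesterol out of lysosomes, had the largest positive interaction of the 36 (2.48 ± 0.27, adjusted p = 4.24e-07). It stood at 58.1, 64.4 and 66.7 CPM (shNT), 21.0, 28.1 and 33.6 CPM (shNT+OHT), 13.2, 10.3 and 10.9 CPM (labelled shCDK12) and 23.4, 29.7 and 30.3 CPM (labelled shCDK12+OHT). It was thus highest in shNT, and OHT lowered it there and raised it under the shCDK12 label. ABCA1, the cholesterol efflux pump, fell 2.22-fold with OHT in shNT (adjusted p = 0.0158, lost without any 1 of the 3 shNT replicates), with an interaction of 1.495 ± 0.31 (adjusted p = 0.000567).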

How the data were processed

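Nascent RNA of 12 libraries, 3 in each of 4 groups, was measured by EU-seq with a stranded total RNA kit. The authors deposited raw counts per gene, listed by Entrez identifier; the submitters' processing notes list STAR 2.7.5c, featureCounts 1.4.5-p1 and hg19, with no settings. Symbols came from RefSeq (GRCh38.p14) for 23284 of 23434 rows. Counts were tested with edgeR 4.0.16 in R 4.3.3 (TMM, quasi-likelihood F test, Benjamini-Hochberg adjustment over all genes tested, threshold 0.05), keeping genes whose normalized count averaged over 32 in the fitted libraries. Pairwise comparisons used their 6 libraries and the interaction all 12. SE is the log2 change divided by the root of F. CPM used TMM factors over the 12 libraries and is not scaled by gene length. No library pair of a group was a duplicate (chi-square per degree of freedom 2.77 to 9.38 between replicates).

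Library values are given for SREBF1, SREBF2, INSIG1 and STARD4 and, in each enzyme group, for the 2 genes with the largest called interaction and the 1 with the smallest; INSIG2 and FADS1 were added after their values were seen. Among the 36 other pathway genes they are given for the 3 largest called interactions; the further ones named there were chosen after their values were seen. The 32 genes, the lists and the tests were chosen with earlier results of these data known. Alternatives were DESeq2 1.42.0, upper-quartile or no normalization factors, filters on counts, all libraries in one fit, thinning to 1251695 counts, removal of gene length trends, the replicate number as a block, and leaving out each library. The scripts were tested on simulated data. A few other pathway genes enter the counts but are not reported singly here.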

Additional observations from a re-analysis of the deposited data

Results flagged for a closer look

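The response to OHT differed between the backgrounds labelled shNT and shCDK12 for 18 of the 32 lipid genes and for other pathway genes described above, by edgeR's test of the interaction across all 12 libraries, which called 45.2% of all 11699 genes tested. The interaction (log2) was -2.63 for DHCR7, -2.17 for SCD, -1.77 for FASN, -1.57 for ELOVL6 and -1.37 for TM7SF2. It was -1.19 for IDI1, -1.14 for ACACA, -1.09 for HMGCS1, -1.002 for ACAT2 and -0.997 for EBP. It was -0.89 for FDFT1, -0.87 for INSIG1, -0.66 for MSMO1, -0.64 for SQLE, -0.63 for NSDHL, -0.60 for FDPS and -0.53 for SREBF2. INSIG2 was the lipid gene with a positive value past the threshold, at 1.94. Among the other pathway genes it was -2.50 for MID1IP1, 2.48 for NPC2, 2.18 for SCD5, 1.495 for ABCA1 and -1.20 for HACD3. These values rest on the labels of the shCDK12 libraries, whose CDK12 range without OHT overlapped that of shNT. An exchange of the groups labelled shCDK12 and shCDK12+OHT would turn the OHT change of that background. The falls of DHCR7 (2.30-fold) and SCD (1.95-fold) there would read as rises, beside rises of 2.69-fold and 2.30-fold in shNT. Such an exchange was not tested, and the interaction was not fitted under it.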

How the results depend on the processing

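Of the 78 lipid gene calls in the 5 comparisons, 47 held in every alternative, 8 held where tested but fell below the count filter in 1 or 2 alternatives (the higher count minimum and thinning; INSIG2, TM7SF2, HSD17B7 and ACAT2), 23 were lost in at least 1 and 0 changed sign. With OHT in shNT, where 8 lipid genes were called, 4 were called with library totals in place of TMM factors, 13 (12 higher, 1 lower) with all 12 libraries in one fit, and 4 to 12 when a library was left out. With OHT in the background labelled shCDK12, the count of 19 went to 12 after thinning to the smallest library, which left 25 of the 32 genes tested. Leaving out a library gave 17 to 18 calls under the shCDK12 label against shNT, 10 to 18 between the OHT-treated groups, 16 to 20 with OHT in the background labelled shCDK12 and 14 to 20 in the interaction. Lost interaction calls were those of ACAT2, EBP, FDPS, MSMO1, NSDHL and SREBF2, with adjusted p-values from 0.0503 to 0.187 where lost. Values near 0 changed sign: the ACSL3 interaction ran from -0.29 to 0.022 and the LSS interaction from -0.56 to 0.19 when a library was left out, LSS was 0.21 after thinning, SREBF1 was -0.010 with upper-quartile normalization and -0.0043 with the length trend removed, CDK12 under the shCDK12 label was 0.015 and 0.0017 in the same alternatives, and MYC with OHT in shNT ran from -0.17 to 0.035 when a library was left out.

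Replicate numbers are not stated to mark a shared culture or day. Deviations of libraries with the same number correlated from -0.148 to 0.44 (median 0.0462, 7 of 18 pairs over 0.1) and those with other numbers from -0.468 to 0.13 (median -0.0214, 4 of 36). A library correlated best with its own number in 24 of 36 library and group combinations, and 3 of 12 libraries did so in all groups, a hint of partial pairing from the data and not from the design. With the replicate number as a block, 8 lipid genes were called with OHT in shNT, 18 under the shCDK12 label, 12 between the OHT-treated groups, 20 with OHT in the background labelled shCDK12 and 19 in the interaction.

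Over all genes, calls with OHT in shNT went from 1782 to 3256 with all libraries in one fit and ran from 670 to 2523 when a library was left out. After thinning, which reduced the genes tested, 4503 of 7498 were called under the shCDK12 label (60.1%, from 7265 or 62%), 3115 of 7403 between the OHT-treated groups (42.1%, from 5298 or 45.4%), 3256 of 7451 with OHT in the background labelled shCDK12 (43.7%, from 6128 or 48.9%) and 3198 of 7454 in the interaction (42.9%, from 5289 or 45.2%). The split of 930 higher and 852 lower genes with OHT in shNT became 763 and 1080 with library totals, 836 and 474 after thinning, and 923 and 546 with the length trend removed, which also took 2776 and 2522 between the OHT-treated groups to 2199 and 3018, and 2994 and 2295 in the interaction to 2412 and 2765. Upper-quartile normalization moved the median interaction of all genes from 0.10 to -0.017 and its split to 2479 and 2777. With OHT in the background labelled shCDK12, the split of 3442 higher and 2686 lower genes became 2767 and 2900 with DESeq2. It became 2957 and 3226 with upper-quartile normalization, and 3047 and 3128 with the length trend removed. The causes were not tested.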
